A study of Mus musculus with 19 samples.

Results

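Interferon-induced genes were followed in RNA from sorted cells of the mouse anterior prostate. The genes were taken by symbol: Gbp, Ifit, Ifitm, Irf, Oas and Ifi genes together with a further set that includes Isg15, Isg20, Ifih1, Stat2, Mx1, Mx2, Rsad2, Usp18, Bst2, Iigp1, Igtp, Irgm1 and Irgm2. This gave 70 genes of the 24343 symbols in the tables, with 108 of 34535 transcripts. The rule matches symbols and reads no measured value. The study sorted basal, luminal and stromal cells by flow cytometry and set mice whose Lgr5-expressing stromal cells had been targeted with diphtheria toxin (DT) against wild type mice. In Lgr5-DTR-eGFP mice the Lgr5 locus drives a diphtheria toxin receptor joined to a green fluorescent protein, so that DT kills cells that express Lgr5. DT-treated Lgr5-DTR-eGFP mice, here Lgr5-DTR, gave 4 stromal, 3 basal and 3 luminal libraries, and wild type (WT) mice gave 3 libraries of each population, 19 in all. The labels name C57BL/6 mice from a commercial breeder, and Lgr5-DTR-eGFP mice from another laboratory. They give no age and do not say whether the WT mice received DT, so genotype, DT and the source of the mice cannot be told apart. Nothing in the labels ties each library to its own mouse, so every p-value here reflects spread from library to library that may be technical.

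Interferons are secreted proteins that warn cells of infection. Type I and type III interferons signal through Jak kinases to a complex that includes Stat2 and Irf9 and binds the interferon-stimulated response element (ISRE) near its target genes, while interferon gamma acts on the gamma-activated site (GAS). The targets include GTPases that attack the vacuoles of intracellular pathogens, proteins that bind viral RNA, membrane proteins that hinder viral entry or release, and transcription factors that feed back on the response. Not every gene of a family responds to interferon.

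The values are FPKM, fragments scaled by transcript length and by the mapped fragments of the library, summed here over the transcripts of a gene, so that levels can be compared between genes as well as between libraries. Depth was 5.26 to 9.38 gigabases of coverage on annotated transcripts, and 9209 to 10819 genes reached 1 FPKM. Lgr5 was at 0.501 to 1.32 FPKM in Lgr5-DTR stromal libraries against 25.8 to 77.65 FPKM in WT stromal libraries, at 0.551 to 1.47 FPKM in Lgr5-DTR against 0.659 to 0.857 FPKM in WT basal libraries, and at 0.554 to 0.671 FPKM in Lgr5-DTR against 1.54 to 1.99 FPKM in WT luminal libraries. Among summed markers, 8 fibroblast markers reached 5649 to 7717 FPKM in Lgr5-DTR and 13420 to 16870 FPKM in WT stromal libraries, 7 basal markers 5604 to 6091 FPKM in Lgr5-DTR and 7851 to 8803 FPKM in WT basal libraries, and 8 luminal markers 15020 to 19370 FPKM in Lgr5-DTR and 24620 to 27130 FPKM in WT luminal libraries. The largest luminal marker, Pbsn, was at 9401, 7500 and 9647 FPKM in Lgr5-DTR against 16876, 22090 and 19870 FPKM in WT luminal libraries. Krt8 was at 3805, 3814 and 1472 FPKM in Lgr5-DTR against 2518, 1210 and 1281 FPKM in WT luminal libraries. The luminal markers thus did not move together. The basal libraries also carried luminal markers, at 5461 to 6875 FPKM in Lgr5-DTR and 4893 to 5696 FPKM in WT. Fibroblast markers summed there to 569 to 1071 FPKM in Lgr5-DTR and 987 to 1220.1 FPKM in WT. Nearly all of that fibroblast sum was Dcn and Gsn. Of the 8 fibroblast markers, 6 in Lgr5-DTR and 5 in WT were below 1 FPKM in every basal library. In Lgr5-DTR basal replicate 2 the luminal sum was above the basal sum of 5604 FPKM. In bulk samples, fewer cells of a type and less RNA per cell cannot be told apart. The tables of 7 libraries carried status entries that the other 12 lacked. Those 7 were 1 stromal, 2 basal and 1 luminal Lgr5-DTR libraries, and 0 stromal, 1 basal and 2 luminal WT libraries, so that no group holds enough of them for a separate comparison.

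The DNA around the start of a gene shows where the response elements can lie. RefSeq start windows, 250 bases before to 50 bases after an annotated start on GRCm38.p6, the assembly called mm10 elsewhere, were found for 50 of the 70 genes. The ISRE core was searched as GAAA, any 2 bases and GAAA again, and the GAS core as TTCNNNGAA, on both strands. The ISRE core lay in 26 of these 50 genes, 52.0%, against 3.99% of the 27025 genes with a window, and the GAS core in 15 of 50, 30.0%, against 9.55%. Of the 13 members called higher in Lgr5-DTR luminal cells below, 9 held an ISRE core and 5 a GAS core, and of the 37 other members with a window 17 and 10 did. A match is a description of letters, not a site in use, and a window without a match says only that these letters are not in it. The windows of 7 of the luminal members are printed because they carry these matches in different arrangements. They are chr3:142620413-142620712 (plus strand) for Gbp2, chr11:58199306-58199605 (plus) for Igtp, chr11:58214727-58215026 (plus) for Irgm2, chr5:120907476-120907775 (minus) for Oas1a, chr19:34583279-34583578 (plus) for Ifit3, chr4:156200769-156201068 (minus) for Isg15 and chr7:141010695-141010994 (minus) for Ifitm3. Each runs 5′ to 3′ along the gene, and capitals mark ISRE cores on either strand, which read TTTC, 2 bases and TTTC where they lie on the other strand:
Gbp2: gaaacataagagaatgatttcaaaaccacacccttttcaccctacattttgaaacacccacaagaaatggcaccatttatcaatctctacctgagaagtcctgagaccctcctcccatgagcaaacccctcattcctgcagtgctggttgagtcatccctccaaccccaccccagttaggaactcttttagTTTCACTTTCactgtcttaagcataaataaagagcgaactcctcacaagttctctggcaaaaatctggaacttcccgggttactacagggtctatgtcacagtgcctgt
Igtp: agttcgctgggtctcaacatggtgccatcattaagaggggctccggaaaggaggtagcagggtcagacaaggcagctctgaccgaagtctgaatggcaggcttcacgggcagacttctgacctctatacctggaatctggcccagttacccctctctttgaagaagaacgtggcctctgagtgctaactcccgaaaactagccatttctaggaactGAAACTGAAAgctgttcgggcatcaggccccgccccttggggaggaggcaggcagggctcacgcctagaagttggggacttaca
Irgm2: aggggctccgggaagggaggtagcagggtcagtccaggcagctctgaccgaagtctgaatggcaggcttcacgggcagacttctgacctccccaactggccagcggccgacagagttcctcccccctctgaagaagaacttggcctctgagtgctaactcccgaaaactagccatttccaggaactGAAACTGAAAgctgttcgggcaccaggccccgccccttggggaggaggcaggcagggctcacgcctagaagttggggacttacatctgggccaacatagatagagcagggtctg
Oas1a: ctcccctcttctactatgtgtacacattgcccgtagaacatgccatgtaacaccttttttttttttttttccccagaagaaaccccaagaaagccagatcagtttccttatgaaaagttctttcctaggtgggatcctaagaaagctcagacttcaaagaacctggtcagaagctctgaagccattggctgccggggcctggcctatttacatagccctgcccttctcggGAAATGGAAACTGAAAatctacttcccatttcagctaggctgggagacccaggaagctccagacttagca
Ifit3: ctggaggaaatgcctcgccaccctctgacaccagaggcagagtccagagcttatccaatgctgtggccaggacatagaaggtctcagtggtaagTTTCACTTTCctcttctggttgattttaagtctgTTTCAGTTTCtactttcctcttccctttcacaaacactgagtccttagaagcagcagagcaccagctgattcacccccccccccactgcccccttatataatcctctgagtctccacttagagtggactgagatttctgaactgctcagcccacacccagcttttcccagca
Isg15: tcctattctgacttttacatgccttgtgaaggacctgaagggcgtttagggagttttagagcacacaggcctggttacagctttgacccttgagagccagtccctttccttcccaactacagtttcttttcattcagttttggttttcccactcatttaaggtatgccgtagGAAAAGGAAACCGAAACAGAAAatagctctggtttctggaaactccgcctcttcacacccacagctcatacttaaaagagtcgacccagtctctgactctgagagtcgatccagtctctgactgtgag
Ifitm3: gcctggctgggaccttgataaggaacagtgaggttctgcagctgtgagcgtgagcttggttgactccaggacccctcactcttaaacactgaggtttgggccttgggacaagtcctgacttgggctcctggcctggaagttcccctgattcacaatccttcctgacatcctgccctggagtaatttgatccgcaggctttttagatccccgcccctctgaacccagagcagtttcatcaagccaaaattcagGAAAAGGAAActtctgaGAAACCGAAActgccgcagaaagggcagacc

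Gbp2 held 1 ISRE core, at -59 from the annotated start to the first base of the match. In Ifit3 the cores stood at -156 and -122. Isg15 held 3 overlapping cores, at -78, -72 and -66, and Oas1a 2 overlapping cores at -20 and -14 with a GAS core at -98. Igtp and Irgm2, which lie close together on chromosome 11, each held an ISRE core and a GAS core, at -34 and -45 in Igtp and at -64 and -75 in Irgm2. Ifitm3 held cores at 2 and 19, with a GAS core at 13 that overlapped the core at 19. Of the luminal members whose windows are not printed, Gbp3 held ISRE cores at -45 and -39, Ifit1 at -104 and -85, and Irf1 a GAS core at -90. The windows of Irf7, Ifitm1 and Irf9 held neither. None of the 4 members called in basal cells that had a window held an ISRE core, and Ifi202b alone of them held a GAS core, at -148. Gbp3, Irf1 and Irf9 have more than 1 annotated start, and a gene was counted when any of its windows held the letters.

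**Figure D1:**
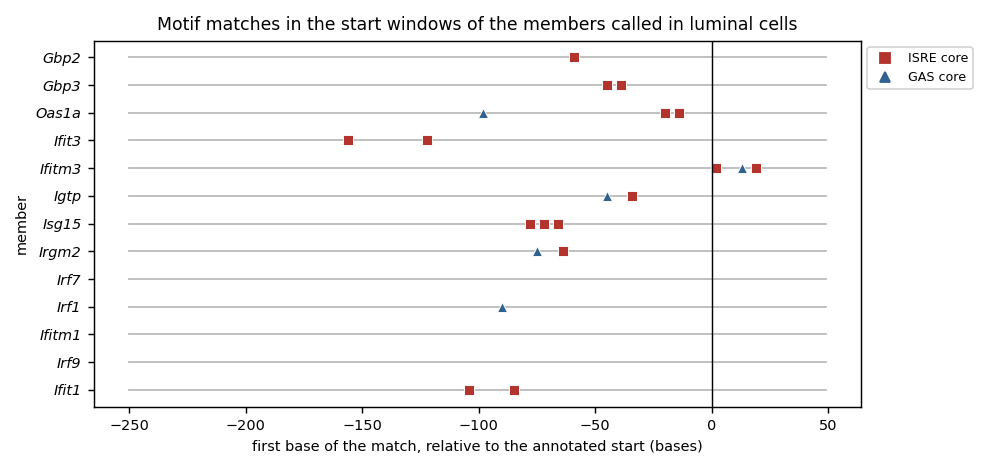
Positions of the first base of each ISRE core (squares) and GAS core (triangles) relative to the annotated start, in bases, in the start windows of the 13 members called in luminal cells. Matches were found in 10 of the 13, most of them between -156 and the start, and the windows of Irf7, Ifitm1 and Irf9 are empty.

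In WT mice these genes were stromal transcripts in the main. Of the 52 members that reached 1 FPKM in some WT library, 46 had their highest WT mean in stromal cells, 2 in basal cells (Ifitm10 among them) and 4 in luminal cells (Irf3, Isg20, Mx1 and Oasl1). The remaining 18 of the 70 stayed below 1 FPKM in every WT library. Over all 19 libraries 13 did so, namely Gbp8, Gbp11, Ifi27l2b, Ifi44l, Ifit1bl2, Ifitm6, Ifitm7, Irf4, Oas1d, Oas1e, Oas1f, Oas1h and Oas3, and each of these was above 0 in at least 1 library.

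The membrane protein Ifitm3, which blocks the fusion of viruses in endosomes, had the highest mean of the members in each WT population, with 2442, 3141 and 2600.0 FPKM in the WT stromal libraries, 1966, 1337 and 1400.2 FPKM in the WT basal libraries and 167, 124 and 121 FPKM in the WT luminal libraries. Ifitm2, its close relative, had 887, 1044 and 1052 FPKM in WT stromal, 248, 220 and 254 FPKM in WT basal and 88.5, 79.6 and 49.1 FPKM in WT luminal libraries. For both genes the populations stood in the order stromal, basal, luminal without overlap. Ifitm1, which acts at the cell surface, was at 603, 645 and 803 FPKM in WT stromal, 2.76, 4.07 and 3.25 FPKM in WT basal and 3.58, 7.34 and 3.86 FPKM in WT luminal libraries, so its epithelial libraries overlapped and lay far below the stromal ones.

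Between WT stromal and WT basal cells 48 members were tested with limma, a linear model of log2(FPKM + 1) fitted over all genes, and called at a Benjamini-Hochberg adjusted p of 0.05. Of these, 43 were higher in stromal cells and 3 lower, beside 30.1% and 28.9% of all genes tested, with a median log2 difference of 2.44 for the members and 0.00 for all genes. Among the members higher in stromal cells, the largest differences were those of Ifi27l2a, listed at 0 in every WT basal library and at 128, 264 and 175 FPKM in WT stromal libraries, Ifitm1 (log2 7.29, SE 0.19, adjusted p = 7.17e-09), the DNA-binding PYHIN gene Ifi205 (6.43, adjusted p = 1.49e-07) and Isg15, a ubiquitin-like modifier (5.82, adjusted p = 2.27e-07). Ifi205 was at 92.1, 155 and 63.8 FPKM in WT stromal and at 0.0865, 0.109 and 0.210 FPKM in WT basal libraries. Isg15 was at 215, 432 and 305 FPKM in WT stromal and at 5.80, 3.03 and 4.82 FPKM in WT basal libraries. The 3 lower members included Ifitm10 (-1.18, adjusted p = 0.000220) and the exonuclease gene Isg20 (-0.73, adjusted p = 0.0331). Isg20 was not called under TMM scaling, which brings the libraries to a common centre. Leaving out WT stromal replicate 1 left 30 members called of 34 tested, since fewer libraries then reached the filter of 1 FPKM in 3 libraries. The share of all genes called in that fit is not given. Ifi27l2a and Ifi205 passed the filter only through WT stromal libraries, here and against luminal cells. Ifitm10 passed it here only through WT basal libraries. The p-values of these genes are thus no separate support for their differences. Ifi27l2a overlaps Ifi27 in the annotation, so its division of reads is uncertain.

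Against WT luminal cells 41 of 48 tested members were higher in WT stromal cells and 3 lower, beside 27.8% and 38.4% of all genes. Their median was 2.43, against -0.25 for all genes, and TMM scaling moved the median of all genes to 0.05 and the counts to 44 and 3 members, while the split of all called genes was then 3776 higher and 3341 lower, against 3105 and 4292 without it. Ifitm1 (6.90), Ifi205 (6.25) and the immunity-related GTPase gene Iigp1 (4.59, adjusted p = 1.27e-07) led the higher members besides Ifi27l2a, which was listed at 0 in the luminal libraries too. Iigp1 was at 66.9, 86.0 and 88.8 FPKM in WT stromal and at 1.22, 3.73 and 2.60 FPKM in WT luminal libraries. Irf3 (-1.67), which switches on interferon beta after viral nucleic acid is sensed, and Isg20 (-1.21) were among those lower in stromal cells. Irf3 was at 8.23, 8.85 and 6.40 FPKM in WT stromal and at 26.7, 30.6 and 23.8 FPKM in WT luminal libraries, without overlap.

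The epithelial populations differed from each other as well. Of 37 members tested between WT basal and WT luminal cells, 6 were higher in basal cells and 21 lower, beside 28.2% and 40.5% of all genes. The median was -0.78, against -0.20 for all genes, which TMM scaling brought to -0.64 and -0.07, with 6 and 21 members still called. Ifitm3 (3.50), Irf5, a regulator of inflammatory cytokines (1.98), and Ifitm2 (1.76) led the higher members, and Irf5 was at 7.80, 3.37 and 2.37 FPKM in WT basal and 0.795, 0.165 and 0.0166 FPKM in WT luminal libraries. The lower members were led by Bst2, the tetherin that holds budding virus at the cell surface (-2.85), Oasl1 (-2.55), Irf8, known from myeloid cells (-2.37), and Isg15 (-1.81). Bst2 was at 4.11, 4.45 and 2.43 FPKM in WT basal against 40.3, 32.1 and 25.4 FPKM in WT luminal libraries. Irf8 was at 0.551, 1.22 and 0.952 FPKM in WT basal against 9.25, 10.3 and 7.02 FPKM in WT luminal libraries, again apart. The limma adjusted p of these 7 members ran from 3.21e-08 for Ifitm3 to 0.000458 for Irf5. Irf5 passed the filter only through WT basal libraries, so its p-value is no separate support.

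**Figure D2:**
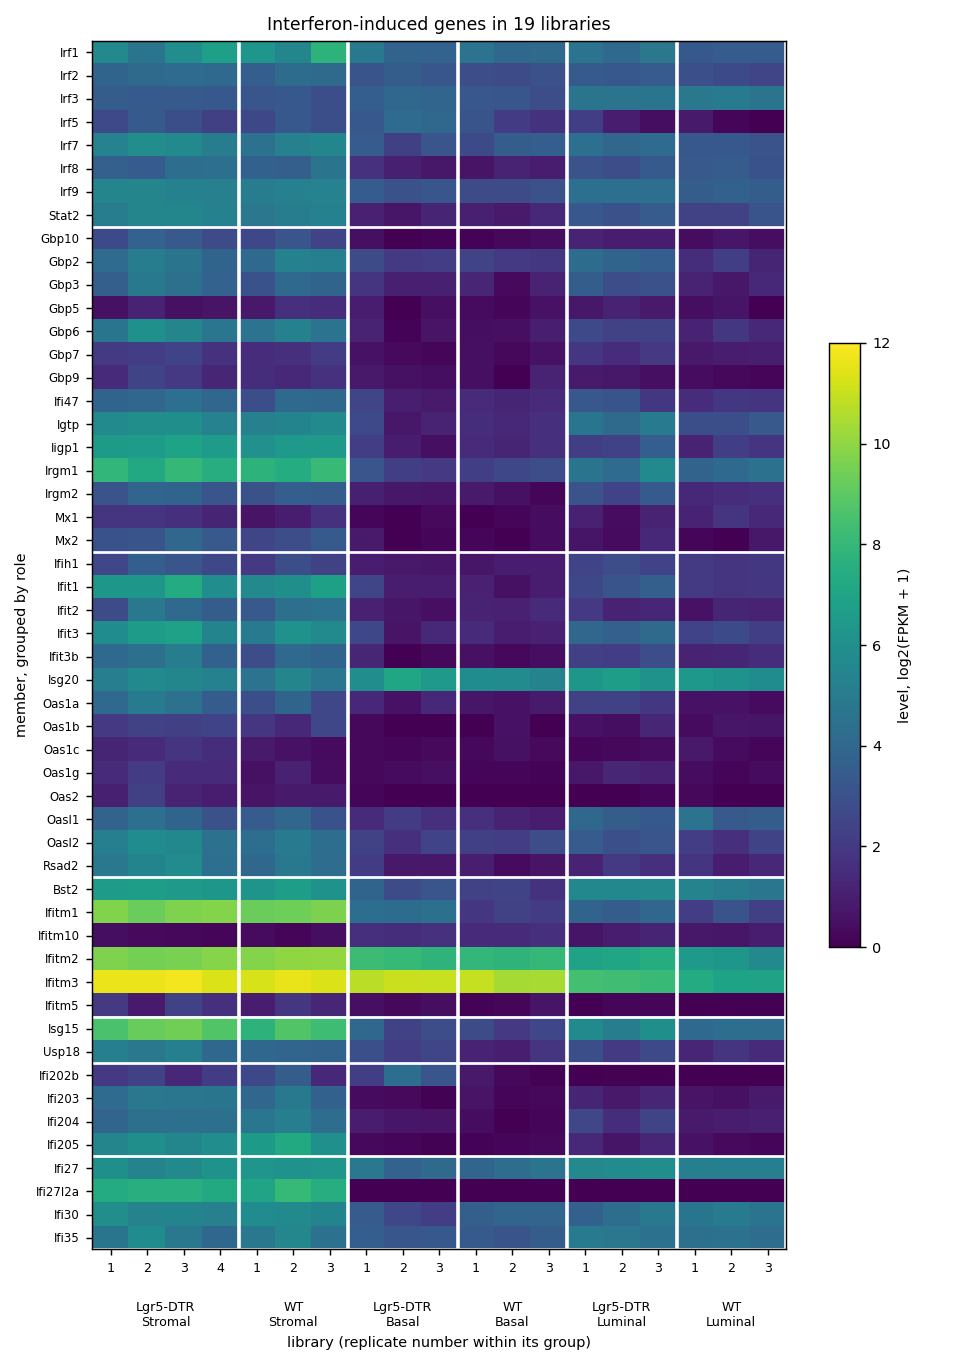
Level of 52 of the 54 members tested in at least 1 comparison, as log2(FPKM + 1), in each of the 19 libraries, with members grouped by role and Lgr5-DTR libraries left of WT libraries in each population. Most rows are brightest in the stromal columns, and Ifitm3 is the brightest member in every population.

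Luminal cells held the most called members of the 3 populations. Isg15, the factors Irf1, Irf7 and Irf9, 4 of 10 tested GTPases, 3 of 10 proteins directed at viral RNA and 2 of 4 membrane proteins rose in Lgr5-DTR luminal libraries, by 0.77 to 2.20 on the log2 scale. Of 39 members tested there, 13 rose in Lgr5-DTR luminal libraries and 0 fell, beside 2.62% and 0.513% of the 10524 genes tested. The log2 difference was positive in 34 of 39 members, against 59.6% of all genes, with a median of 0.96 against 0.10. All 3 Lgr5-DTR libraries lay above all 3 WT libraries in 25 members and below them in 0, where 17.4% and 9.63% of all genes did so. An unadjusted p under 0.05 was reached by 28 members, beside 22.7% of all genes. The remaining 31 members had no test, because fewer than 3 luminal libraries reached 1 FPKM. Scaling by TMM left 11 members called, without Ifit1 and Irf9, with a median of 0.89 against 0.03, and the split of all called genes was then 219 higher and 93 lower, against 276 and 54 without TMM scaling.

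GTPases were called in 4 of 10 tested members. Gbp2, a guanylate-binding protein (chromosome 3, 142620663 to 142638008 of mm10), had 18.2, 13.4 and 11.01 FPKM in Lgr5-DTR luminal libraries, against 2.01, 3.73 and 1.40 FPKM in WT luminal libraries. Its neighbour Gbp3 (chromosome 3, 142560052 to 142573212) had 10.8, 6.13 and 6.80 FPKM in Lgr5-DTR against 1.19, 0.724 and 1.63 FPKM in WT. Every Lgr5-DTR library lay above every WT library in both genes. Gbp2 rose by 2.20 on the log2 scale (SE 0.29, adjusted p = 0.00817) and Gbp3 by 2.01 (SE 0.27, adjusted p = 0.00817). The immunity-related GTPase Igtp (chromosome 11, 58199556 to 58207592) had 24.2, 16.6 and 30.6 FPKM in Lgr5-DTR against 6.33, 6.41 and 9.32 FPKM in WT, and Irgm2 (chromosome 11, 58214977 to 58222783) had 7.48, 4.31 and 9.43 FPKM in Lgr5-DTR against 1.56, 1.83 and 2.10 FPKM in WT. Neither gene's groups overlapped, and replicate 2 was the lowest Lgr5-DTR library in both. Igtp rose by 1.55 (SE 0.25, adjusted p = 0.0164) and Irgm2 by 1.46 (SE 0.27, adjusted p = 0.0258). Of the other 6 GTPases, 5 had positive differences that did not pass, such as Gbp7 (0.89, adjusted p = 0.0695) and Gbp6 (0.95, adjusted p = 0.0791), and Mx1 was at 1.14, 0.321 and 1.28 FPKM in Lgr5-DTR and at 1.27, 2.54 and 1.498 FPKM in WT libraries. Gbp2 contains the small Mir6381 gene, and 90.2% of the 50-base stretches of Gbp6 occur in another transcript, so Gbp6 is uncertain.

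Proteins directed at viral RNA were called in 3 of 10 tested members. Oas1a, an oligoadenylate synthetase that activates RNase L (chromosome 5, 120896257 to 120907525), had 4.03, 4.24 and 2.90 FPKM in Lgr5-DTR luminal libraries against 0.517, 0.490 and 0.295 FPKM in WT. Ifit3, which joins other Ifit proteins on viral RNA ends (chromosome 19, 34583529 to 34588982), had 14.4, 12.02 and 16.8 FPKM in Lgr5-DTR against 4.26, 5.43 and 3.65 FPKM in WT. Both genes were apart in every library, and Oas1a, below 1 FPKM in all WT libraries, had the largest ratio of means of the 13 called members, 8.58. That ratio divides by a low WT mean of 0.434 FPKM. Oas1a passed the filter of 1 FPKM in 3 libraries only through its Lgr5-DTR libraries, so its p-value is no separate support. Oas1a rose by 1.71 (SE 0.23, adjusted p = 0.00817) and Ifit3 by 1.5002 (SE 0.21, adjusted p = 0.00998). Ifit1, which binds the ends of foreign RNA, had 5.12, 7.66 and 11.2 FPKM in Lgr5-DTR against 3.08, 2.48 and 2.69 FPKM in WT (log2 1.21, SE 0.27, adjusted p = 0.0459). Its lowest Lgr5-DTR library was replicate 1, and its groups did not overlap. Ifit3b (1.08, adjusted p = 0.0513) and Oasl2 (1.11, adjusted p = 0.0547) missed the threshold, and Isg20 (0.27), Rsad2 (0.29) and Oasl1 (-0.19) lay near 0. Shared sequence makes 2 of the called genes uncertain as single genes: 57.6% of the 50-base stretches of Oas1a occur in Oas1g, and 51.2% of those of Ifit3 in Ifit3b.

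In the modifier system Isg15 (chromosome 4, 156199424 to 156200818) rose by 1.34 (SE 0.23, adjusted p = 0.0190), with 50.8, 33.5 and 62.1 FPKM in Lgr5-DTR luminal libraries against 16.4, 19.3 and 18.7 FPKM in WT. Usp18, the protease that strips Isg15 from proteins and restrains the type I receptor, had 6.29, 3.14 and 5.28 FPKM in Lgr5-DTR against 1.41, 2.58 and 1.65 FPKM in WT, apart but not past the threshold (1.02, adjusted p = 0.0782). Among membrane proteins Ifitm3 (chromosome 7, 141009590 to 141010744) had 341, 318 and 278 FPKM in Lgr5-DTR against 167, 124 and 121 FPKM in WT, and rose by 1.19 (SE 0.19, adjusted p = 0.0149). Ifitm1 (chromosome 7, 140967429 to 140969827) had 13.7, 10.6 and 14.7 FPKM in Lgr5-DTR against 3.58, 7.34 and 3.86 FPKM in WT, and rose by 1.28 (SE 0.26, adjusted p = 0.0353). All 4 tested membrane proteins were apart in the same direction, with Ifitm2 at 0.99 (adjusted p = 0.0590) and Bst2 at 0.57 (adjusted p = 0.125).

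Transcription factors were called in 3 of 9. Irf7, the main amplifier of type I interferon genes (chromosome 7, 141263183 to 141266424), had 20.1, 14.4 and 17.1 FPKM in Lgr5-DTR luminal libraries against 8.73, 8.80 and 7.34 FPKM in WT. Irf1, which drives many targets of interferon gamma (chromosome 11, 53770014 to 53778374), had 22.7, 16.2 and 26.4 FPKM in Lgr5-DTR against 8.91, 10.4 and 10.3 FPKM in WT. Irf9, the DNA-binding partner of Stat2 (chromosome 14, 55603985 to 55610030), had 19.9, 19.7 and 19.6 FPKM in Lgr5-DTR against 10.6, 12.3 and 10.7 FPKM in WT, the tightest of the 3 in the Lgr5-DTR group. The genotypes did not overlap in any of the 3. Irf7 rose by 0.96 (SE 0.19, adjusted p = 0.0303), Irf1 by 1.04 (SE 0.21, adjusted p = 0.0312) and Irf9 by 0.77 (SE 0.16, adjusted p = 0.0399). Irf3 and Irf8 both had differences of -0.19. In the PYHIN family the DNA sensor gene Ifi204 was at 4.82, 1.92 and 4.43 FPKM in Lgr5-DTR against 0.826, 0.892 and 1.09 FPKM in WT (1.23, adjusted p = 0.0562).

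**Figure D3:**
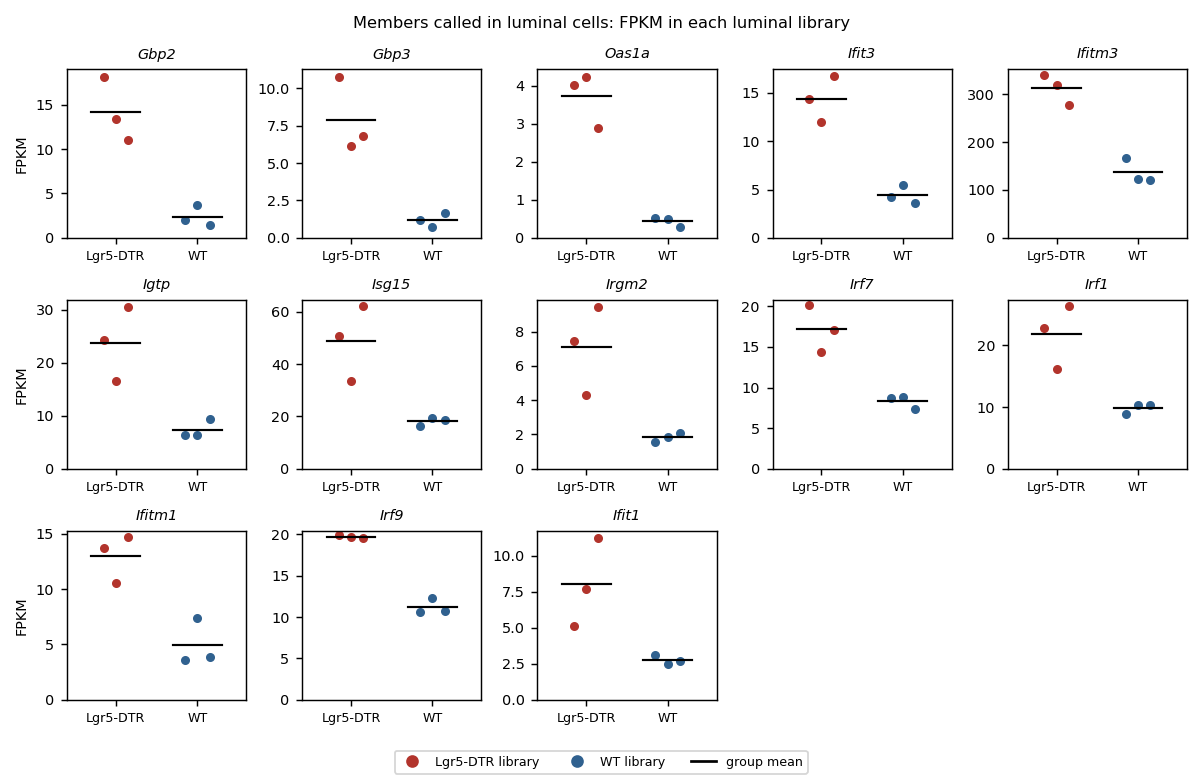
FPKM of the 13 members called in luminal cells, with a point for each luminal library (Lgr5-DTR left of WT) and a line at each group mean. In all 13 panels the 3 Lgr5-DTR points lie above the 3 WT points, with ratios of means between 1.76 and 8.58.

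The luminal counts rested on particular libraries. With limma, 6 members were called without Lgr5-DTR luminal replicate 1, 2 without WT luminal replicate 2, and 0 without WT luminal replicate 3, where no gene at all was called and 26 members had an unadjusted p under 0.05. Gbp2 and Ifit3 passed in 5 of 6 such fits, and Gbp3, Ifitm3 and Igtp in 4 of 6. Isg15, Irgm2 and Irf7 passed in 3 of 6, Irf1 and Ifitm1 in 2 of 6, and Irf9 in 1 of 6. Oas1a could be tested in 3 of these fits and passed in 1. With no filter on low values 0 members were called, 33 had an unadjusted p under 0.05, and 4 genes passed in all. The counts of 6, 2, 26 and 33 members are given without the share of all genes in the same fits. They thus say nothing particular to the members. Markers of other cells moved in the same libraries. The 14 macrophage markers summed to 161, 36.6 and 119 FPKM in Lgr5-DTR luminal libraries against 25.6 to 30.65 FPKM in WT, with 8 and 6 of the 14 at 1 FPKM in all libraries of the group. Among them Lyz2 was at 44.8, 11.1 and 31.9 FPKM in Lgr5-DTR against 3.33 to 5.17 FPKM in WT, and the leukocyte gene Ptprc at 0.402, 0.0521 and 0.862 FPKM in Lgr5-DTR against 0 to 0.140 FPKM in WT. The 11 lymphocyte markers summed to 4.04, 1.42 and 3.52 FPKM in Lgr5-DTR against 1.89 to 2.75 FPKM in WT luminal libraries. Of the T cell genes among them, Cd3d was listed at 0 in all luminal libraries. Cd3g was at 0.223, 0 and 0.557 FPKM in Lgr5-DTR against 0 FPKM in WT luminal libraries. The 4 Schwann cell markers summed to 107, 41.2 and 83.48 FPKM in Lgr5-DTR against 18.5 to 33.3 FPKM in WT. Among fibroblast markers Col1a1 was at 38.7, 18.1 and 39.8 FPKM in Lgr5-DTR against 3.23 to 5.45 FPKM in WT, while Lum was at 0.0366, 0.117 and 0.309 FPKM in Lgr5-DTR against 0 to 0.176 FPKM in WT. All 8 fibroblast markers summed to 187 to 280 FPKM in Lgr5-DTR against 183 to 232 FPKM in WT luminal libraries. The part of these cells in the luminal result was not tested. Lgr5-DTR luminal replicate 2 was the lowest Lgr5-DTR library for 8 of the 13 called members, and the highest for 1. The share of all genes lowest in that library was not counted. Its levels of the 13 members were 1.44 to 8.19 times those of the highest WT luminal library.

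The luminal levels of the called members stayed mostly below those of WT stroma. For 10 of the 13 members every Lgr5-DTR luminal library was below every WT stromal library, and the ratio of WT stromal to Lgr5-DTR luminal means ran from 1.34 for Irgm2 to 52.6 for Ifitm1, with a median of 2.22. The share of all genes in that position was not counted, and most members were highest in stroma in WT mice. Gbp2, Gbp3 and Irgm2 were the exceptions. In each, part of the Lgr5-DTR luminal libraries lay inside the range of the WT stromal libraries and the rest below it.

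In basal cells the called members were Ifitm1, Ifi202b, Usp18, Irf5 and Irf3, all higher in Lgr5-DTR. Of 32 tested, 5 rose and 0 fell in Lgr5-DTR basal libraries, beside 6.5% and 4.46% of the 9755 genes tested, and 38 members had no test. The difference was positive in 23 of 32, against 52.1% of all genes, with a median of 0.29 against 0.02. In 10 members the groups did not overlap with Lgr5-DTR higher and in 1 with it lower, where 17.5% and 13.7% of all genes did so, and 10 had an unadjusted p under 0.05, beside 27.7% of all genes.

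Ifitm1 had the firmest basal rise, with 19.5, 17.7 and 20.6 FPKM in Lgr5-DTR basal libraries against 2.76, 4.07 and 3.25 FPKM in WT basal libraries. It rose by 2.22 (SE 0.17, adjusted p = 0.000575) and passed in 6 of 6 fits that left out a library and in 5 of 5 other settings. Ifi202b, a DNA-binding PYHIN protein (chromosome 1, 173962569 to 173982844), had 3.51, 19.04 and 7.97 FPKM in Lgr5-DTR basal against 0.782, 0.199 and 0.0435 FPKM in WT, and rose by 2.84 (SE 0.49, adjusted p = 0.0104). Ifi202b passed the filter of 1 FPKM in 3 libraries only through its Lgr5-DTR libraries, so its p-value is no separate support for the rise. Its Lgr5-DTR libraries spread widely but none met the WT range. In luminal cells it was at most 0.0396 FPKM, and in stromal cells its genotypes overlapped at 2.95, 4.08, 1.57 and 3.21 FPKM in Lgr5-DTR and 5.02, 10.6 and 1.60 FPKM in WT.

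Usp18 (chromosome 6, 121245906 to 121270917) had 6.53, 3.56 and 4.61 FPKM in Lgr5-DTR basal libraries against 1.26, 1.03 and 2.48 FPKM in WT, and rose by 1.198 (SE 0.27, adjusted p = 0.0239). Irf5 (chromosome 6, 29526625 to 29537320) had 8.78, 17.3 and 15.1 FPKM in Lgr5-DTR against 7.80, 3.37 and 2.37 FPKM in WT, and rose by 1.49 (SE 0.37, adjusted p = 0.0384). Irf3 (chromosome 7, 44997648 to 45002848) had 10.96, 15.3 and 13.9 FPKM in Lgr5-DTR against 8.66, 8.21 and 6.08 FPKM in WT, and rose by 0.73 (SE 0.19, adjusted p = 0.0410). The groups were apart in all 3 genes, by little in Irf5 and Irf3. Ifi30, a thiol reductase of antigen processing, went the other way without passing (-1.06, SE 0.30, adjusted p = 0.0550), at 9.96, 5.13 and 3.55 FPKM in Lgr5-DTR against 11.5, 13.9 and 13.8 FPKM in WT. Under TMM scaling Irf3 was not called and Ifi30 was called lower. Neither the 6 GTPases nor the 5 RNA-directed proteins tested in basal cells held a called member, and Gbp2, called in luminal cells, was at 6.02, 3.06 and 3.57 FPKM in Lgr5-DTR against 4.47, 3.11 and 2.87 FPKM in WT.

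**Figure D4:**
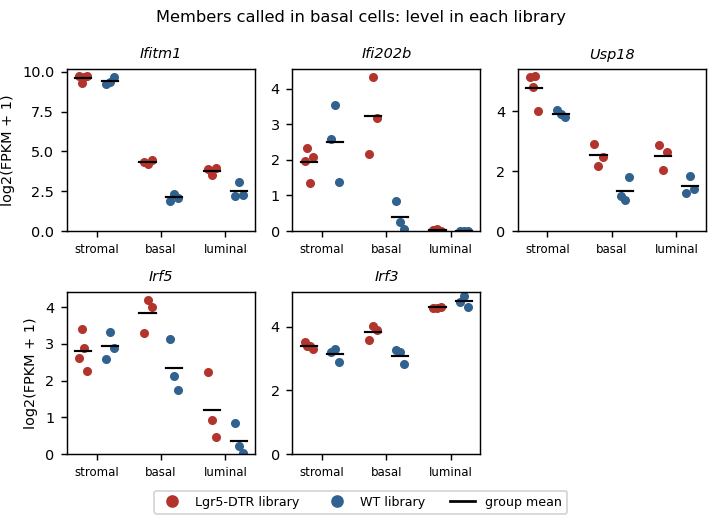
Level, as log2(FPKM + 1), of the 5 members called in basal cells in the stromal, basal and luminal libraries, with a point for each library (Lgr5-DTR left of WT) and a line at each group mean. The basal points of the genotypes are apart in all 5 panels, and Ifitm1 is highest in stromal cells while Irf3 is highest in luminal cells.

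The basal count also depended on libraries and settings. It was 10, with 7 higher and 3 lower, without Lgr5-DTR basal replicate 1, and 1 without Lgr5-DTR replicate 2, Lgr5-DTR replicate 3 or WT replicate 2 in turn, where Ifitm1 still passed, and 3 without WT replicate 3. It was 2 with no filter on low values and 2 with the set of 7 libraries as a covariate. All these counts are given without the share of all genes called in the same fit. Replicate 1 was the Lgr5-DTR basal library nearest to WT for Irf5 and Irf3, and the highest for Isg15 at 15.6 FPKM, with 4.05 and 6.09 FPKM in the other Lgr5-DTR basal libraries and 5.80, 3.03 and 4.82 FPKM in WT. Endothelial markers moved with the basal groups, 9 of them summing to 36.45, 15.6 and 18.1 FPKM in Lgr5-DTR against 8.94 to 14.8 FPKM in WT, with 6 and 3 of the 9 at 1 FPKM in all libraries and Pecam1 at 8.32, 3.40 and 2.92 FPKM in Lgr5-DTR against 1.42 to 2.01 FPKM in WT. Macrophage markers summed to 23.3 to 32.9 FPKM in Lgr5-DTR against 17.0 to 26.7 FPKM in WT basal libraries, with Ptprc at most 0.105 FPKM in any of them. Smooth muscle markers summed to 10.6 to 13.75 FPKM in Lgr5-DTR against 32.3 to 41.8 FPKM in WT basal libraries. The part of these cells in the basal result was not tested.

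In stromal cells no member passed. Of 53 tested, limma called 0, beside 0.0655% of 10689 genes called higher and 1.1% called lower, and 8 had an unadjusted p under 0.05, beside 11.5% of all genes. The difference was positive in 38 of 53, against 38.5% of all genes, with a median of 0.30 against -0.09, and in 42 of 54 under TMM scaling, with a median of 0.39 against 0.00. The groups were apart with Lgr5-DTR higher in 5 members (Oas1c, Oas1g, Oas2, Iigp1 and Irf3) and lower in 2 (Ifi205 and Ifi27), where 1.8% and 9.39% of all genes were. RNA-directed proteins had positive differences in 13 of 14 tested members, with a median of 0.57, and the 4 PYHIN genes had a median of -0.49, with 1 positive.

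The 6 members with the smallest p were given in full. Oas1c, an oligoadenylate synthetase, had 1.36, 1.69, 2.64 and 1.98 FPKM in Lgr5-DTR stromal libraries against 0.797, 0.493 and 0.284 FPKM in WT (0.93, SE 0.24, adjusted p = 0.117). Oas1g, of the same family, had 1.68, 3.19, 1.73 and 1.80 FPKM in Lgr5-DTR against 0.436, 1.14 and 0.321 FPKM in WT (0.93, SE 0.27, adjusted p = 0.160). Both were low but apart, and Oas1c passed the filter of 1 FPKM in 3 libraries only through its Lgr5-DTR libraries. Oas1a had 16.04, 31.1, 21.1 and 10.4 FPKM in Lgr5-DTR against 6.39, 13.5 and 4.89 FPKM in WT, overlapping through WT replicate 2 (1.17, SE 0.38, adjusted p = 0.229). Usp18 had 34.8, 26.9, 35.7 and 14.97 FPKM in Lgr5-DTR against 15.4, 14.1 and 13.1 FPKM in WT (0.87, SE 0.29, adjusted p = 0.245). Its Lgr5-DTR replicate 4 lay among the WT libraries, and without that replicate it was called (adjusted p = 0.0171), the 1 member so called. Isg15 had 375, 599, 671 and 429 FPKM in Lgr5-DTR against 215, 432 and 305 FPKM in WT (0.72, SE 0.27, adjusted p = 0.315). Ifi205 was lower, with 43.4, 62.7, 44.3 and 58.6 FPKM in Lgr5-DTR against 92.1, 155 and 63.8 FPKM in WT (-0.90, SE 0.29, adjusted p = 0.216), and the groups were apart by little. The transcripts of Ifi205 share 49.6% of their 50-base stretches with other genes, and those of Oas1g 54.7%. Smooth muscle markers, 6 in all, summed to 310.4 to 431 FPKM in Lgr5-DTR and 203 to 295 FPKM in WT stromal libraries, without overlap, and the fibroblast sums given above were also apart, with Lgr5-DTR lower. Macrophage markers summed to 21.65 to 38.0 FPKM in Lgr5-DTR and 13.2 to 37.4 FPKM in WT stromal libraries. The part of these cells in the stromal values was not tested.

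**Figure D5:**
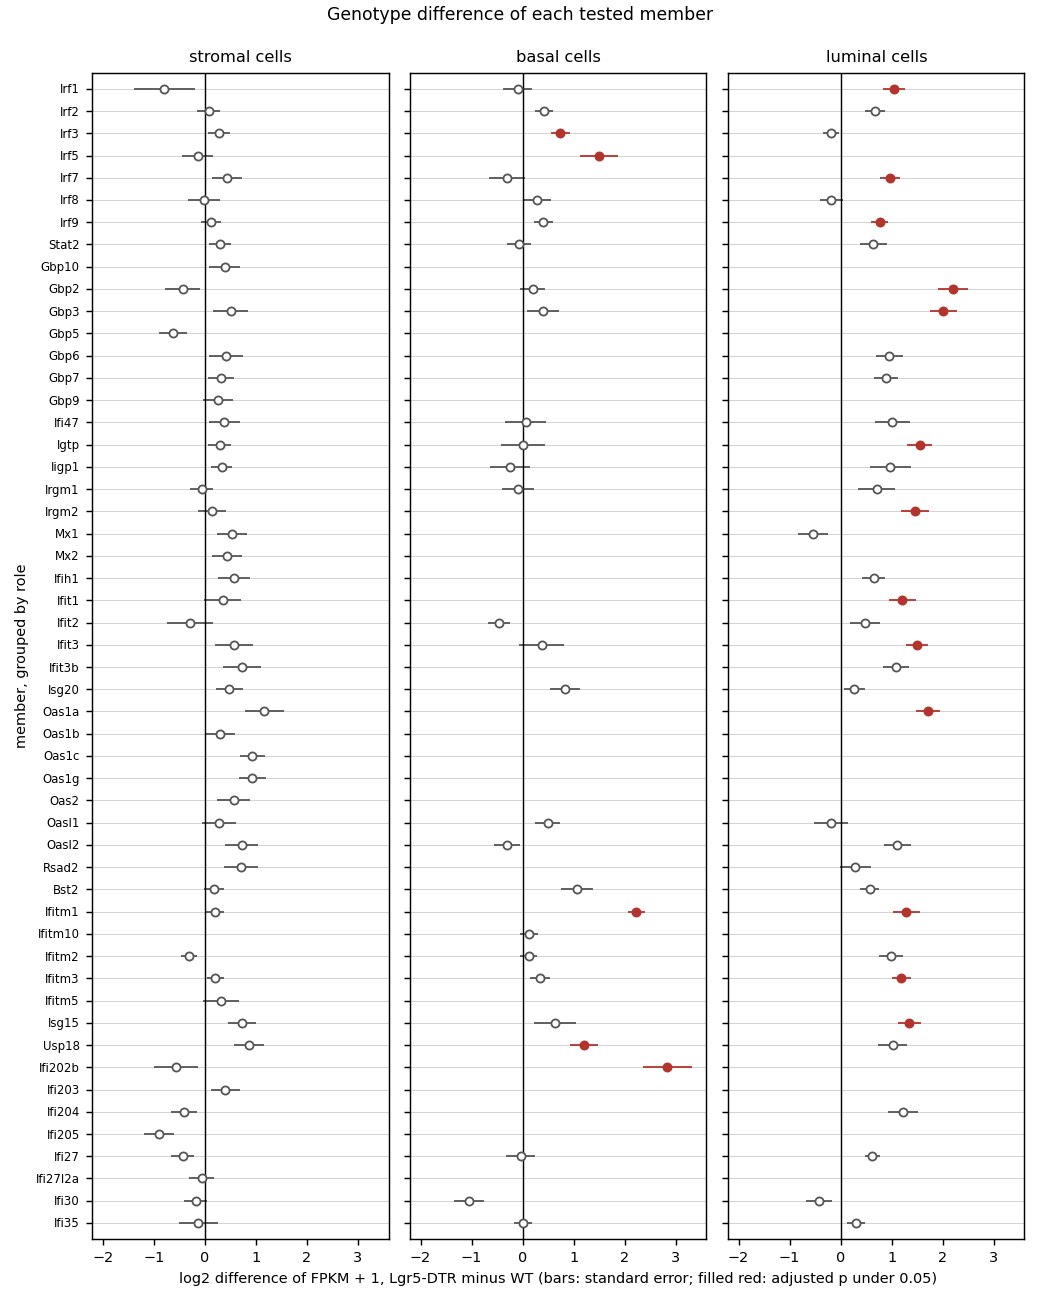
Log2 difference of FPKM + 1, Lgr5-DTR minus WT, with its standard error, for 52 of the 54 tested members in stromal, basal and luminal cells, grouped by role. Filled red points passed an adjusted p of 0.05: 0 in the stromal, 5 in the basal and 13 in the luminal panel, all to the right of 0.

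The difference between populations was tested as an interaction, over the genes tested in both. Gbp2 stood out in the luminal cells: Lgr5-DTR minus WT came to -0.43 in stroma, 0.19 in basal cells and 2.20 in luminal cells, and the stromal minus luminal difference of -2.63 (SE 0.49, adjusted p = 0.0106) and the basal minus luminal difference of -2.00 (SE 0.40, adjusted p = 0.0165) both passed. In stromal cells Gbp2 was at 17.6, 32.0, 23.4 and 13.5 FPKM in Lgr5-DTR and at 16.3, 37.6 and 35.7 FPKM in WT libraries, so that the genotypes overlapped. Between stromal and luminal cells 4 of 39 members were called lower and 0 higher, beside 2.43% and 0.0756% of all genes, with Ifitm2 (-1.30, adjusted p = 0.0275), Ifi204 (-1.64, adjusted p = 0.0351) and Ifitm3 (-0.98, adjusted p = 0.0439) after Gbp2. The median was -0.57 for members and -0.19 for all genes, which TMM scaling moved to -0.37 and -0.02, and Gbp2 alone then passed. Ifitm2 had 829, 716, 758 and 901 FPKM in Lgr5-DTR and 887, 1044 and 1052 FPKM in WT stromal libraries, beside 119, 136 and 171 FPKM in Lgr5-DTR and 88.5, 79.6 and 49.1 FPKM in WT luminal libraries. Ifi204 had 13.9, 20.6, 20.3 and 20.8 FPKM in Lgr5-DTR and 25.0, 34.3 and 18.5 FPKM in WT stromal libraries. Both thus differed in sign between the populations, though neither change passed within its own population. The counts without single libraries that follow are given without the share of all genes called in the same fits. Gbp2 kept its call with each of 13 libraries left out in turn, while without single libraries 1 to 4 members were called: 1 without Lgr5-DTR stromal replicate 3, WT stromal replicate 2 or WT luminal replicate 3, and 2 without Lgr5-DTR stromal replicate 1, Lgr5-DTR luminal replicate 1 or 3, or WT stromal replicate 1 or 3.

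Between stromal and basal cells Ifitm1 and Ifi202b differed, 2 of 31 members called lower, beside 2.09% of all genes, and 0 higher, beside 0.891%. The genotype difference of Ifitm1 was 0.19 in stromal and 2.22 in basal cells (-2.03, adjusted p = 0.000514), and that of Ifi202b -0.56 and 2.84 (-3.40, adjusted p = 0.0201). Ifitm1 had 848, 611, 815 and 862 FPKM in Lgr5-DTR stromal libraries against 603, 645 and 803 FPKM in WT, where the genotypes overlapped. Ifitm1 passed with each of 13 libraries left out in turn, and Ifi202b was lost without WT basal replicate 2 or 3. In basal cells Ifi202b passed the filter only through its Lgr5-DTR libraries, so its p-value is no separate support. Without Lgr5-DTR basal replicate 2 or 3 the count was also 1, since too few basal libraries then reached 1 FPKM for Ifi202b to be tested. Between basal and luminal cells Gbp2 and Gbp3 (-1.62, adjusted p = 0.0495) were called lower, 2 of 29 members, beside 3.18% of all genes, and 0 higher, beside 1.09%. Gbp3 was not called under TMM scaling or with a pseudocount of 0.1 FPKM, and Gbp2 was lost without Lgr5-DTR basal replicate 2, where limma called 0 members and 11 had an unadjusted p under 0.05. Without Lgr5-DTR basal replicate 1 the count was 9, and it was 1 without each of WT luminal replicates 1, 2 and 3, Lgr5-DTR luminal replicates 1 and 2, Lgr5-DTR basal replicate 3 and WT basal replicate 3 in turn. These counts without single libraries, and the 11 members with an unadjusted p under 0.05, are given without the share of all genes. Under TMM scaling the median of all genes was 0.05 for stromal minus basal cells, against -0.08 without it, and that of the members -0.06 against -0.20. The split of called genes under TMM scaling was 117 higher and 145 lower for stromal minus basal, against 80 and 188 without it, and 188 and 276 for basal minus luminal, against 99 and 289.

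Other genes of the pathway, taken from a list of interferon ligands, receptors, kinases, sensors, inhibitors and further induced genes, showed where the machinery was present. Of 13 interferon genes 1 reached 1 FPKM in any library: Ifne, an interferon of epithelia, at 0.824, 1.38 and 2.61 FPKM in Lgr5-DTR basal libraries against 0.348, 0.0902 and 0 FPKM in WT, too few libraries at 1 FPKM for a test. Among the 6 receptor chains, all tested in basal and luminal cells, Il10rb, which forms part of the type III receptor, rose in luminal cells, at 12.1, 9.91 and 9.39 FPKM in Lgr5-DTR against 3.87, 3.64 and 5.12 FPKM in WT (1.14, SE 0.21, adjusted p = 0.0230). Ifnlr1, the chain specific to type III interferon, rose in basal cells, at 5.65, 10.8 and 10.96 FPKM in Lgr5-DTR against 4.13, 4.04 and 3.47 FPKM in WT (1.01, SE 0.24, adjusted p = 0.0321). Both were apart in every library, and no other receptor chain was called in these cells, nor any of 5 in stromal cells. Jak2, a kinase of the interferon gamma receptor, rose in basal cells, at 15.6, 20.1 and 23.5 FPKM in Lgr5-DTR against 10.7, 10.7 and 9.68 FPKM in WT (0.85, SE 0.18, adjusted p = 0.0187), the 1 call among 3 kinases. These single calls stand beside 2.62% of all genes called higher in luminal and 6.5% in basal cells.

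Of 44 further induced genes, 6 of 34 tested rose in luminal cells, beside 2.62% of all genes, 1 of 24 in basal cells, beside 6.5%, and 0 of 36 in stromal cells, beside 0.0655%, and none fell. The basal share is below that of all genes. The luminal calls were the immunoproteasome gene Psmb8 (1.53, adjusted p = 0.00767), the galectin gene Lgals9 (1.80, adjusted p = 0.0190), Rtp4 (1.30, adjusted p = 0.0190), the chemokine gene Cxcl10 (1.77, adjusted p = 0.0243), the GTPase gene Tgtp2 (1.29, adjusted p = 0.0307) and the PYHIN gene Mnda (1.501, adjusted p = 0.0459). Psmb8 had 42.3, 30.0 and 33.9 FPKM in Lgr5-DTR luminal libraries against 13.6, 9.86 and 11.4 FPKM in WT. The basal call was Slfn2, of the Schlafen family (1.64, adjusted p = 0.0129). Cxcl10 had 26.8, 19.4 and 53.3 FPKM in Lgr5-DTR luminal libraries against 8.08, 8.10 and 8.37 FPKM in WT, while in basal cells it had 108.5, 13.5 and 13.04 FPKM in Lgr5-DTR against 99.45, 126 and 155 FPKM in WT. The basal minus luminal difference for Cxcl10 passed (-3.93, adjusted p = 0.0386), and its basal Lgr5-DTR replicate 1 lay within the WT range, apart from the other Lgr5-DTR libraries. None of the sensors and adaptors (10, 7 and 9 tested in stromal, basal and luminal cells) and none of the inhibitors (4, 4 and 5 tested) was called by limma, and 2, 1 and 2 sensors and 0, 0 and 2 inhibitors had an unadjusted p under 0.05.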

How the data were processed

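The deposited tables hold FPKM values per RefSeq transcript, 1 table a library, with the coverage of each transcript beside them. Per the submitters' processing notes the authors used TopHat2 and Cufflinks with mm10, and their versions are not given in the sources used here. Libraries came from cDNA amplified with SMART-Seq v4, per the labels' protocols. FPKM were summed over the transcripts of a symbol, and depth was estimated as deposited coverage times transcript length. Genes with a failed or capped estimate in a population were left out of its tests. Genes at 1 FPKM or more in at least 3 libraries of the groups compared were tested on log2(FPKM + 1), a scale that understates the change of low genes, with limma 3.58.1 in R 4.3.3 (statmod 1.5.0), and p-values were adjusted over all genes tested by Benjamini-Hochberg with a threshold of 0.05. Fits were made within each population, between populations of WT mice, and as an interaction over pairs of populations.

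Tables and figures used Python 3.11.15, pandas 2.3.3, numpy 2.4.6 and matplotlib 3.10.9, and the fits were checked on simulated data. Alternatives were a pseudocount of 0.1 FPKM, no filter, TMM scaling, a replicate block, the processing set as a covariate, and leaving out each library. Members named were, for each genotype comparison, those called, up to 12 by smallest adjusted p and filled to 6 by smallest unadjusted p; up to 5 called for each interaction; the 3 highest in each WT population; and the 4 called with the largest difference each way between WT populations. Ifit1 in luminal cells and every other member or pathway gene named was chosen after its values were seen. Of the 70 members, 2 stay in the counts, medians and fits and are not reported here by name or drawn in the figures. The members, gene lists and motifs were chosen with earlier results of these data known. Sharing of sequence was counted as 50-base stretches of the longest coding transcript found in GENCODE transcripts of other genes.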

Additional observations from a re-analysis of the deposited data

Results flagged for a closer look

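In the stromal group of 4 Lgr5-DTR libraries, 4 of 53 members had a library far from the others, and chance gives about 1 in 20. Replicate 2 was high for Gbp5 (1.21 FPKM), Oas1g (3.19 FPKM) and Oas2 (3.90 FPKM), and replicate 1 was low for Ifi204 (13.9 FPKM).

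The genotype difference itself differed between populations in 8 cases by limma's interaction test. Stromal minus basal cells gave -2.03 for Ifitm1 and -3.40 for Ifi202b. Stromal minus luminal cells gave -2.63 for Gbp2, -1.30 for Ifitm2, -1.64 for Ifi204 and -0.98 for Ifitm3, and basal minus luminal cells gave -2.00 for Gbp2 and -1.62 for Gbp3.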

How the results depend on the processing

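Over 54 named results and 591 alternative values none changed direction, 461 kept their side of the threshold in the same direction, 121 lost a call and 9 gained one. With no filter on low values the count of members called was 2 in basal cells, 0 in luminal cells and 2 for stromal minus luminal. TMM scaling gave 1 for stromal minus luminal, the pseudocount of 0.1 FPKM gave 1 for basal minus luminal, and the processing set as a covariate gave 2 in basal cells and 5 for basal minus luminal. Leaving out single libraries gave 0 to 1 in stromal, 1 to 10 in basal and 0 to 15 in luminal cells, 1 to 3 for stromal minus basal, 1 to 4 for stromal minus luminal and 0 to 9 for basal minus luminal changes, and in WT mice 30 to 45, 33 to 43 and 22 to 25 for the same pairs of populations. The share of all genes called in each of these fits is not given here. No cause of these moves was tested. FPKM carry no counts, so counting error is unknown.

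Replicate numbers were not used to pair the samples in the main fits, which treat all libraries as independent. Between genotypes the numbers were those of the sample descriptions, and between WT basal and luminal cells those of the titles. Title numbers shared among Lgr5-DTR populations were not checked. Same-numbered libraries correlated at -0.0457 to 0.486 in stromal, -0.529 to -0.247 in basal and -0.115 to 0.377 in luminal cells, and at -0.0456 to 0.229 between WT basal and luminal cells, and in none of these 4 checks did every library correlate best with its own number. WT basal replicates 1 and 3 did correlate best with the luminal library of their own title number, at 0.229 and 0.174, so a pairing there is not excluded. With a replicate block 12 members were called in stromal cells (10 higher, 2 lower), 1 in basal cells, 16 in luminal cells and 27 between WT basal and luminal cells. The share of all genes called under the block is not given here, so these counts say nothing particular to the members.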

Other observations

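Ifi44, an interferon-induced gene of little known function, was chosen here after its values were seen. Without TMM scaling too few libraries brought it to 1 FPKM for a test. Under TMM scaling it was tested in stromal cells (log2 0.96) and not called. It had 0.790, 2.59, 0.992 and 1.34 FPKM in Lgr5-DTR stromal libraries against 0.263, 0.321 and 0.114 FPKM in WT. In basal libraries it had 0.550, 0.306 and 0.534 FPKM in Lgr5-DTR against 0.113, 0.127 and 0.276 FPKM in WT. In luminal libraries it had 0.449, 0.477 and 1.42 FPKM in Lgr5-DTR against 0.247, 0.187 and 0.194 FPKM in WT. The Lgr5-DTR libraries lay above the WT libraries in all 3 populations, at levels near the limit of these libraries.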
